A study of Saccharomyces cerevisiae with 6 samples.

Results

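The mRNAs of Nrd1, Nab3 and Sen1 (the NNS termination complex) and of the cleavage factors Pcf11 and Hrp1 were examined in budding yeast cells with an amino acid substitution in Rrp4, a cap subunit of the RNA exosome. The genes were taken by name as a list of 5, *NRD1*, *NAB3*, *SEN1*, *PCF11* and *HRP1*, chosen with earlier results of these data known. They are among the 8898 features that were counted, and all 5 had enough counts to be tested. Libraries were made from 3 cultures per genotype of haploid BY4742 cells (*MAT*α *ura3Δ0 leu2Δ0 his3Δ1*) in which the chromosomal *RRP4* gene was replaced (*rrp4Δ::NEO*). The strain list of the study adds *lys2Δ0* and, in the text used here, prints the mating type as *MAT*a, which differs from the sample labels. Cells of both genotypes carried a *LEU2* *CEN* plasmid (pRS315) as their only source of Rrp4, which encoded either *RRP4-2xMyc* or *rrp4-G226D-2xMyc*, and cultures of both spent 5 h at 37°C in medium without leucine. Both genotypes derive from a single *rrp4Δ* strain, and the tagged alleles end in the 3′-UTR of *ADH1* in place of the native *RRP4* end, so the control is itself a plasmid-complemented deletion.

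RNA polymerase II transcription in yeast ends by more than one route. At short noncoding transcripts, such as CUTs and snoRNA precursors, Nrd1 and Nab3 recognize short RNA motifs and the helicase Sen1 releases the polymerase, after which the TRAMP complex and the nuclear RNA exosome trim or degrade the released RNA. At mRNA ends, the cleavage and polyadenylation factors act instead, among them Pcf11 and Hrp1, and Pcf11 also takes part in NNS termination. *NRD1*, *PCF11* and *HRP1* are known as genes that limit their own mRNA by early termination, and the released short transcripts are exosome substrates. The comparison of *rrp4-G226D* with *RRP4* libraries gives the counts of each factor's gene when the exosome carries the altered cap subunit. These are counts per gene from total RNA, so a short released transcript within a gene would be counted with its mRNA. Levels called mRNA below do not separate them, and the share of short transcripts was not tested.

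Each gene has a single coding exon in RefSeq's annotation of the R64 assembly, and no other annotated gene overlaps any of them. *NRD1* (YNL251C) lies on chromosome XIV from 172588 to 174315 on the minus strand, *NAB3* (YPL190C) on chromosome XVI from 185317 to 187725 on the minus strand, and *SEN1* (YLR430W) on chromosome XII from 993434 to 1000129 on the plus strand. *PCF11* (YDR228C) lies on chromosome IV from 921926 to 923806 on the minus strand and *HRP1* (YOL123W) on chromosome XV from 87844 to 89448 on the plus strand. The coding sequences differ in length, at 1728 bases for *NRD1*, 2409 for *NAB3*, 6696 for *SEN1*, 1881 for *PCF11* and 1605 for *HRP1*.

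Since early termination of some of these genes relies on motifs near the start of the transcript, the 30-base stretch with the most motifs among the first 300 coding bases is shown for each gene, 5′ to 3′ on the coding strand of the R64 genome. Where stretches tied, the one nearest the start codon was taken. Capitals mark matches to the motifs bound by Nrd1 (GTAA and GTAG) or by Nab3 (TCTT and CTTG), written as DNA, and neighbouring matches can share letters.
*NRD1*, chrXIV:174274-174303, minus strand: gacgattttcaaaattttGTAGctacCTTG
*NAB3*, chrXVI:187658-187687, minus strand: tccttcacctgaactatccgtcgataGTAA
*SEN1*, chrXII:993525-993554, plus strand: tagctaccgtctataccaaggcaaagTCTT
*PCF11*, chrIV:923758-923787, minus strand: ttatagtcaaggatttcaacagtatTCTTG
*HRP1*, chrXV:88020-88049, plus strand: taGTAAcaacaGTAGTAGTAAtaataGTAA

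The genes that limit their own mRNA had more matches than *NAB3* and *SEN1* in the first 300 coding bases, but not in the window around the start codon. Within the first 300 coding bases, the coding strand of *HRP1* held 9 motif matches, that of *NRD1* 8 and that of *PCF11* 7, against 2 each in *NAB3* and *SEN1* and a median of 4 over 5687 genes with a window of this length. A count at least as high was found in 2.57% of these genes for *HRP1*, 5.70% for *NRD1* and 11.2% for *PCF11*, and in 87.9% for *NAB3* and *SEN1*. The kinds of motif differed, with 6 Nrd1 and 3 Nab3 matches in *HRP1*, 2 and 6 in *NRD1* and 3 and 4 in *PCF11*. Motifs this short are common, since GTAA was present in 62.1% of the coding windows, GTAG in 44.8%, TCTT in 72.3% and CTTG in 56.9%. On the opposite strand the same windows held 20 matches in *HRP1*, 15 in *NAB3*, 11 in *SEN1*, 10 in *NRD1* and 7 in *PCF11*, counts reached by 0.475%, 4.43%, 21.1%, 29.4% and 64.2% of genes. In the window from 250 bases before to 50 bases after the start codon, *PCF11* held 8 matches, *NRD1* and *NAB3* 5 each, *SEN1* 3 and *HRP1* 2, around a median of 5 over 5993 genes. A count at least as high was found in 21.0% of genes for *PCF11*, 61.7% for *NRD1* and *NAB3*, 89.8% for *SEN1* and 96.2% for *HRP1*, the fewest of the 5. The opposite strand held 13 matches in *HRP1*, 11 in *NRD1*, 7 each in *PCF11* and *NAB3* and 6 in *SEN1*, counts reached by 2.32%, 8.56%, 46.4% and 60.5% of genes. GTAA was present in 76.5% of these windows, GTAG in 54.6%, TCTT in 85.3% and CTTG in 62.8%. Matches are a description of the letters and do not show binding.

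**Figure D1:**
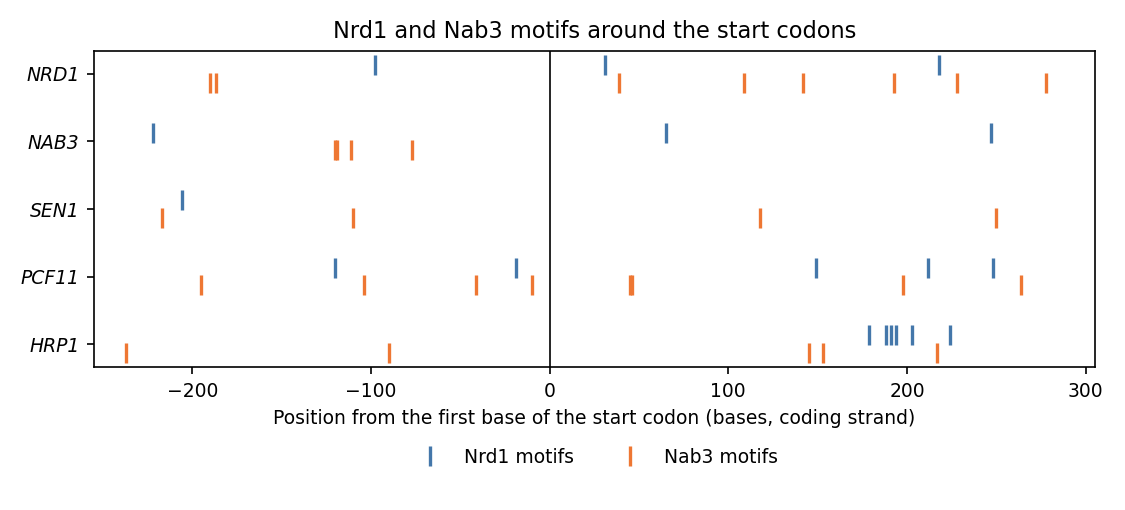
Position of Nrd1 motifs (GTAA, GTAG) and Nab3 motifs (TCTT, CTTG) on the coding strand, in bases from the first base of the start codon, from 250 bases before it to 300 bases into the coding sequence. The 6 Nrd1 motifs in the coding part of *HRP1* lie close together, whereas those of *NRD1* and *PCF11* are spread out.

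The libraries held between 7663545 and 12181979 counts, and the 5 genes between 783 and 9084 counts in a library, so that counting error was at most 3.57% of a value. Levels are given as CPM after TMM scaling (normalized counts), and changes come from edgeR's quasi-likelihood test on all 7631 features that passed its filter, with Benjamini-Hochberg adjustment over all of them. A change is called an increase or decrease at an adjusted p below 0.05 and at least 1.5-fold. *RRP4*, read from the plasmid, had 1110 to 1537 counts in *RRP4* and 3229 to 4232 in *rrp4-G226D* libraries, and counts per gene cannot tell which allele a read came from. In normalized counts *RRP4* was 170 ± 7.10 and 294 ± 11.1 (SD, n = 3), a 1.73-fold increase (adjusted p = 4.48e-09, edgeR), larger than that of *NAB3* or *SEN1*, while the plasmid marker *LEU2* was 0.660-fold (adjusted p = 4.95e-07, edgeR). Their part in the changes of the 5 mRNAs was not tested. *URA3* had 0 counts in every library, *LYS2* had at most 1 and *LEU2* had 14538 to 19683. The α-cell genes *MF(ALPHA)1* and *STE3* had at least 992 counts, whereas the **a**-cell genes *MFA1* and *MFA2* had at most 40. The α-cell gene *MF(ALPHA)2*, with 36 to 74 counts, was below the **a**-cell gene *STE2*, with 66 to 139, in every library. *HIS3* had 478 to 885 counts, and since *his3Δ1* removes only part of the gene these reads check nothing. With TMM, increases were 52.8% of all calls. With TMM computed over open reading frames alone they were 63.4%, and with library size as the only scaling 94.99%, a setting that moved the median change over all features from 0.01 to 0.46 on the log2 scale.

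Of the 5 mRNAs, those of all NNS subunits were higher in *rrp4-G226D* cells. *NRD1* rose by 87.6%, *NAB3* by 60.3% and *SEN1* by 50.2%, and these 3 of 5 were called increased, against a background of 12.7% of all features and 5.38% of the 5982 open reading frames tested. The study had reported *NRD1* and *NAB3* as increased in these libraries. It also reported both as increased by RT-qPCR, in cells whose plasmids held untagged alleles with the native *RRP4* 3′-UTR. The list was chosen with such earlier results known. The contrast with the background is therefore only a description. *PCF11* rose by 24.5%, below 1.5-fold, and *HRP1* did not pass the test with TMM scaling. At an adjusted p below 0.05 without a fold threshold, 4 of 5 were higher, against 28.6% of all features and 23.1% of open reading frames. None of the 5 was lower, at either threshold, against 11.3% of all features and 13% of open reading frames past 1.5-fold and 31% and 37.5% by adjusted p alone. In the same 4 the libraries of the genotypes did not overlap, which was the case, with *rrp4-G226D* higher, for 31.3% of all features and 25.4% of open reading frames. With *rrp4-G226D* lower it was the case for 32.8% and 39.7%, and in either direction for 64.1% and 65.1%, so the lack of overlap alone is common in these libraries.

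*NRD1*, which encodes the subunit that binds both RNA and the C-terminal domain (CTD) of RNA polymerase II and contacts TRAMP, was at 308, 266 and 275 normalized counts in the *RRP4* libraries. In the *rrp4-G226D* libraries it was at 520, 504 and 569. Every mutant library therefore lay above every control library, by more than the whole spread within either genotype. The mean went from 283 ± 21.96 to 531 ± 34.0 (SD, n = 3), a 1.88-fold change (95% interval 1.70 to 2.07, log2 fold change 0.91, standard error 0.068, adjusted p = 4.87e-09, edgeR). Of the 5982 open reading frames tested, 147 had a larger increase.

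*NAB3* encodes the RNA-binding partner of Nrd1. It was at 378, 378 and 364 normalized counts in *RRP4* and at 548, 600 and 647 in *rrp4-G226D* libraries. The control libraries were closely grouped and the mutant libraries were spread more widely, without overlap. The change was 1.603-fold (95% interval 1.46 to 1.76, log2 fold change 0.68, standard error 0.066, adjusted p = 9.56e-08, edgeR), so the interval reaches below 1.5-fold.

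*SEN1* encodes the helicase of the complex and is the longest of these genes. It was at 250, 244 and 237 normalized counts in *RRP4* and at 354, 367 and 376 in *rrp4-G226D* libraries. The libraries separated by genotype, and the spread within each was small. The change was 1.502-fold (95% interval 1.38 to 1.63, log2 fold change 0.59, standard error 0.057, adjusted p = 9.81e-08, edgeR), which places it on the 1.5-fold threshold. Its log2 fold change was 0.56 without *RRP4* replicate 3, 0.57 without *rrp4-G226D* replicate 2 and 0.56 without *rrp4-G226D* replicate 3, below the 0.585 that corresponds to 1.5-fold.

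*PCF11* encodes a cleavage factor IA subunit with a CTD-interacting domain like that of Nrd1. It was the least abundant in counts, at 115, 116 and 116 normalized counts in *RRP4* and at 134, 149 and 150 in *rrp4-G226D* libraries. The lowest mutant library was above all controls. The change was 1.24-fold (95% interval 1.14 to 1.36, log2 fold change 0.32, standard error 0.060, adjusted p = 0.000221, edgeR), and the interval lies wholly below 1.5-fold.

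*HRP1* encodes a shuttling RNA-binding protein, also called cleavage factor IB, that binds UA-rich elements near mRNA ends. It was at 341, 328 and 321 normalized counts in *RRP4* and at 318, 306 and 337 in *rrp4-G226D* libraries. The genotypes overlapped. The fold change was 0.971 (95% interval 0.891 to 1.06, log2 fold change −0.04, standard error 0.059, adjusted p = 0.553, edgeR), so an increase of the size seen for *PCF11* lies outside the interval. The direction depended on scaling, with a log2 fold change of 0.03 when TMM was computed over open reading frames alone and 0.41 with library size only. With library size only, the adjusted p was 3.13e-06 (edgeR), so that *HRP1* then passed the test as higher, and *PCF11*, at 0.77, passed 1.5-fold. Of the open reading frames tested, 53.0% had a lower log2 fold change than *HRP1* and their median was −0.07, so its sign also depends on the features it is set against.

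**Figure D2:**
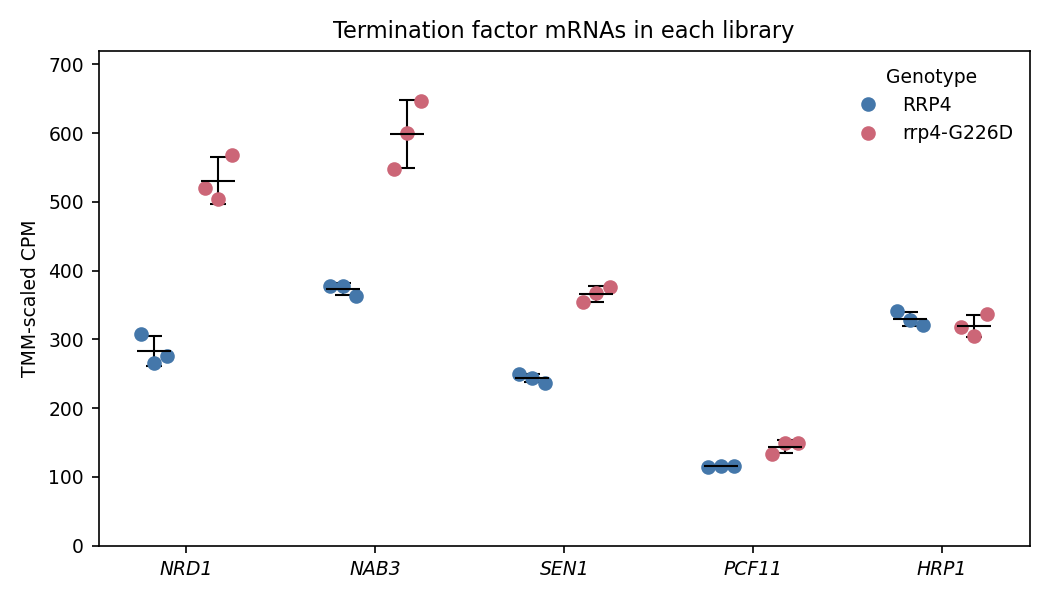
TMM-scaled CPM of the 5 mRNAs (vertical axis, from 0) in each library, 3 per genotype. Horizontal marks are means and bars are the SD. *NRD1*, *NAB3*, *SEN1* and *PCF11* show no overlap between genotypes, and *HRP1* runs from 306 to 341 over both together.

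**Figure D3:**
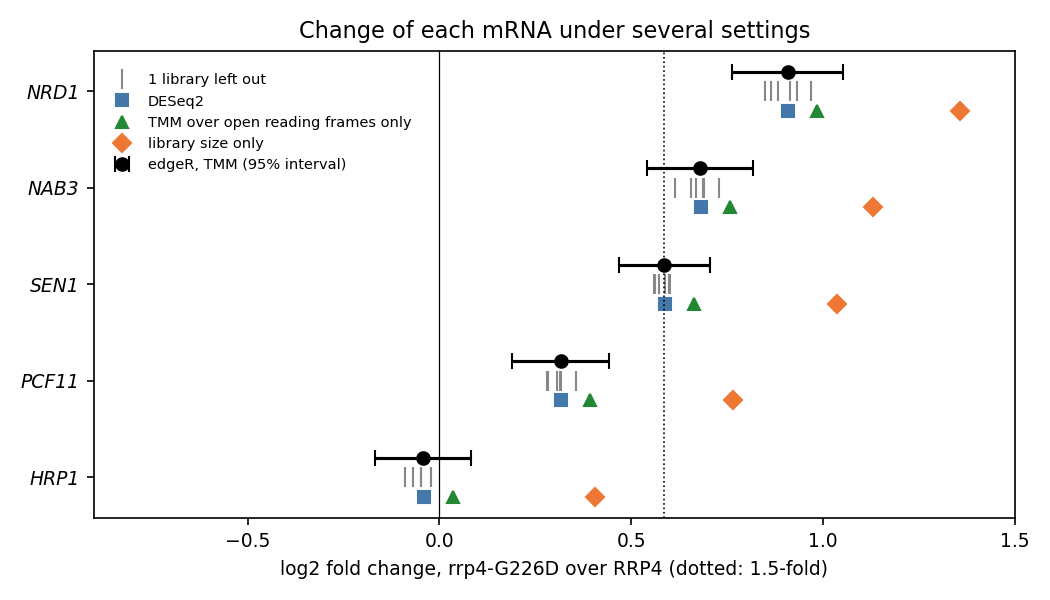
log2 fold change of each mRNA (horizontal axis) from edgeR with its 95% interval, with 1 library left out at a time, with DESeq2, and with other scalings. A change of scaling moves all 5 by about the same amount, and library size alone shifts them to the right, *HRP1* from −0.04 to 0.41.

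The genes that limit their own mRNA therefore gave the largest, the fourth and the smallest change of the 5. *NRD1*, *PCF11* and *HRP1* had log2 fold changes of 0.91, 0.32 and −0.04, and *NAB3* and *SEN1* had 0.68 and 0.59. The number of motif matches in the coding start did not follow the order of the changes, since *HRP1* had the most and *SEN1* and *NAB3* the fewest. In the window around the start codon *HRP1* had the fewest matches and *PCF11* the most. A link between matches, early termination and the changes was not tested.

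Because a ratio of 2 counts within a library does not depend on how libraries are scaled, the 10 pairs of these mRNAs were compared in this way. The 10 pairs share 5 genes and are not independent. In 9 of 10 pairs the ratio did not overlap between the genotypes, where 64.1% of all single features did not overlap either and no share over other gene pairs was computed, and an exact two-sided permutation test gave p = 0.1 for each, the smallest that 3 against 3 libraries allow (0.111 adjusted over the 10 pairs), so no pair could pass 0.05. The ratio of *NRD1* to *HRP1* counts was 0.903, 0.811 and 0.859 in *RRP4* and 1.64, 1.65 and 1.69 in *rrp4-G226D* libraries. This 1.93-fold difference was the largest among the pairs, and *NRD1* went from fewer to more counts than *HRP1* in every library. The ratio of *SEN1* to *HRP1* moved in the same way, from 0.732, 0.744 and 0.740 to 1.11, 1.20 and 1.12.

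The ratio of *NRD1* to *NAB3* was 0.814, 0.703 and 0.757 in *RRP4* and 0.948, 0.840 and 0.879 in *rrp4-G226D* libraries. The gap between the genotypes was narrow here, with the lowest mutant ratio 1.03-fold above the highest control ratio and a mean difference of 1.17-fold, and at p = 0.1 (exact permutation test) it did not pass. The ratio of *NRD1* to *SEN1* was on average 1.25-fold higher in *rrp4-G226D* libraries, and that to *PCF11* 1.51-fold. The ratio of *NAB3* to *SEN1* was the exception, at 1.52, 1.55 and 1.53 in *RRP4* and 1.55, 1.63 and 1.72 in *rrp4-G226D* libraries (exact permutation test, two-sided, p = 0.2). These overlapped, with a mean difference of 1.06-fold and single library pairs between 0.998-fold and 1.13-fold.

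**Figure D4:**
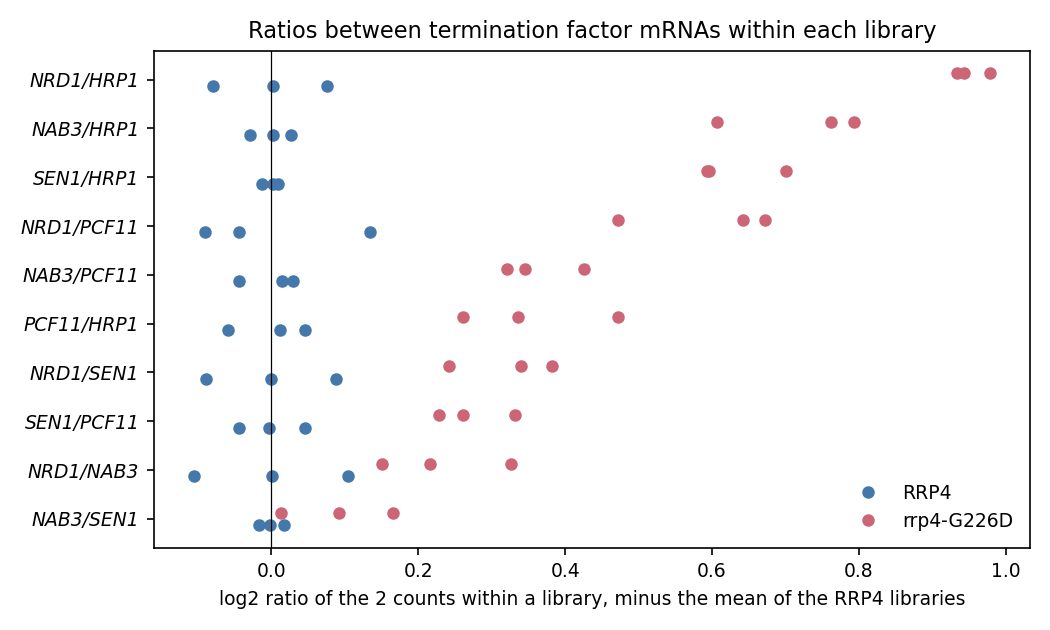
log2 ratio of the counts of 2 mRNAs within each library (horizontal axis), with the mean of the *RRP4* libraries set to 0, for the 10 pairs. Points are libraries. Only *NAB3*/*SEN1* overlaps between genotypes, and *NRD1*/*HRP1* has the largest mean difference, at 1.93-fold.

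Per kilobase of coding sequence, the order of the 5 mRNAs differed between the genotypes. In *RRP4* libraries *HRP1* was highest, at 200 to 212 normalized counts per kilobase, followed by *NRD1* (154 to 178) and *NAB3* (151 to 157), whose ranges overlapped. *PCF11* (61.2 to 61.9) and *SEN1* (35.4 to 37.3) were lower. In *rrp4-G226D* libraries *NRD1* was highest (292 to 329), followed by *NAB3* (227 to 269), *HRP1* (190 to 210), *PCF11* (71.2 to 79.5) and *SEN1* (52.9 to 56.2), and no neighbours in this order overlapped. Within a library, the ratio of *NRD1* to *NAB3* per kilobase was between 0.9804 and 1.13 in *RRP4* and between 1.17 and 1.32 in *rrp4-G226D* cells. Sen1, the catalytic subunit, thus had the least abundant mRNA per kilobase in both genotypes. Among the 5731 open reading frames tested with a coding length, *SEN1* per kilobase exceeded 34.4% in *RRP4* and 53.3% in *rrp4-G226D* cells, and *NRD1* exceeded 83.8% and 93.9%.

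Of the 10 genes next to the termination factors, *MRPL17* alone passed 1.5-fold, and it was lower, as were 13% of all open reading frames, so 1 of 10 is near the background. *MRPL17*, a mitochondrial ribosomal protein gene that lies after the end of *NRD1* on the same strand, 301 bases away, fell from 45.1 ± 2.41 to 22.7 ± 0.841 normalized counts (SD, n = 3), a log2 fold change of −0.99 (adjusted p = 2.54e-08, edgeR). *RAD50*, which encodes a subunit of a DNA double-strand break repair complex and is divergent from *NRD1*, went from 66.2 ± 3.09 to 91.7 ± 5.14 (0.47, adjusted p = 1.08e-05, edgeR). Neither neighbour of *NAB3* passed the test, with *COA2* at −0.01 (adjusted p = 0.946, edgeR) and the gene YPL191C at 0.02 (adjusted p = 0.896, edgeR). Of the neighbours of *SEN1*, *CRN1*, upstream on the same strand, was at −0.21 (adjusted p = 0.00501, edgeR) and *ATG23* at 0.20 (adjusted p = 0.0405, edgeR). *IVY1* and *SIR4*, beside *PCF11*, were at −0.30 (adjusted p = 0.000275, edgeR) and 0.16 (adjusted p = 0.0358, edgeR). *TRM11* and *SMF1*, beside *HRP1*, were at −0.01 (adjusted p = 0.955, edgeR) and −0.44 (adjusted p = 0.000836, edgeR). CUTs and SUTs carry no coordinates in the files and could not be placed relative to these genes.

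Other genes of termination and nuclear RNA processing were gathered in 9 lists. Of their 62 genes, all tested, 1 gene (1 of 62) was increased and 2 were decreased past 1.5-fold, where 5.38% and 13% of open reading frames were, and the median log2 fold change was −0.00, against −0.07 over open reading frames. The 1 increased gene, *IMD2*, was below 1.5-fold without *rrp4-G226D* replicate 3, which left 0 increased. Without *rrp4-G226D* replicate 1 there were 2 increased, *IMD2* and *RTF1* (0.60). Without *rrp4-G226D* replicate 2 there was 1 decreased gene. At an adjusted p below 0.05 alone, 18 were higher, 19 were lower and 25 did not pass, where 23.1% of open reading frames were higher and 37.5% lower.

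None of the 3 cleavage factor IA genes listed beside *PCF11* passed 1.5-fold. *RNA15*, whose product binds mRNA upstream of the cleavage site, went from 69.2 to 87.3 normalized counts (log2 fold change 0.33, adjusted p = 0.000474, edgeR), close to the change of *PCF11*, while *CLP1* was at −0.20 (adjusted p = 0.0484, edgeR) and *RNA14* at 0.11 (adjusted p = 0.1003, edgeR). Among 15 genes of the cleavage and polyadenylation factor (CPF), 4 were higher and 5 lower at an adjusted p below 0.05, with a median of −0.03. *GLC7*, the phosphatase of CPF, was the farthest from 0, at −0.41 (adjusted p = 6.88e-06, edgeR). *SSU72*, a CPF phosphatase of the CTD that also acts at NNS terminators, was at 0.27 (adjusted p = 0.0120, edgeR).

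Of the 3 genes of the Rat1 pathway, in which an exonuclease follows the polymerase after cleavage, *RAT1* was higher, at 0.35 (adjusted p = 0.000106, edgeR), and *RAI1* and *RTT103* did not pass. Of 10 genes of CTD kinases, phosphatases and the isomerase Ess1, 1 was higher and 4 were lower, with *CTK2* at −0.42 (adjusted p = 0.000633, edgeR) and *ESS1* at −0.32 (adjusted p = 0.000330, edgeR). Of 8 elongation factor genes, 4 were higher and 1 was lower. The Paf1 complex genes *RTF1* (0.51, adjusted p = 0.000159, edgeR) and *LEO1* (0.44, adjusted p = 0.000852, edgeR) were the highest of these. The 1 lower gene, *CDC73* (−0.26, adjusted p = 0.0171, edgeR), is of the same complex, as are *CTR9* (0.23, adjusted p = 0.00330, edgeR) and *PAF1*, which did not pass (0.10, adjusted p = 0.157, edgeR). Both genes of the nuclear cap-binding complex were lower. *CBC2* was decreased past 1.5-fold, from 64.3 to 41.7 normalized counts (−0.63, adjusted p = 4.23e-06, edgeR), and *STO1* was at −0.32 (adjusted p = 0.000140, edgeR). Without *rrp4-G226D* replicate 2, *CBC2* was at −0.57, short of 1.5-fold. With library size only, *CBC2* was at −0.18 and did not pass the test (adjusted p = 0.0692, edgeR).

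Of 8 TRAMP and nuclear exosome cofactor genes, *TRF5* (0.22, adjusted p = 0.00574, edgeR) and *AIR2* (0.21, adjusted p = 0.0258, edgeR) were higher, and the other 6 did not pass the test. Among these, *PAP2*, which encodes the Trf4 poly(A) polymerase of TRAMP, was at −0.06 (adjusted p = 0.478, edgeR) and *RRP6*, the nuclear exonuclease, at −0.10 (adjusted p = 0.206, edgeR). Of 6 genes for other nuclear mRNA-binding proteins, *NAB2* (0.48, adjusted p = 2.40e-05, edgeR), which encodes a poly(A)-binding protein, and *NPL3* (0.34, adjusted p = 0.000275, edgeR) were higher, and *YRA1* (−0.20, adjusted p = 0.00451, edgeR) and *PUB1* (−0.14, adjusted p = 0.0413, edgeR) were lower.

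The 7 mRNAs listed as limited by NNS termination went in both directions, 3 higher and 4 lower at an adjusted p below 0.05. *IMD2*, an IMP dehydrogenase gene with near-identical paralogs that could share its reads, was at 16.2, 17.7 and 16.9 normalized counts in *RRP4* and 24.2, 25.5 and 30.6 in *rrp4-G226D* libraries (0.66, adjusted p = 6.91e-05, edgeR). Its log2 fold change was 0.54 without *rrp4-G226D* replicate 3. *URA2*, of pyrimidine synthesis, was at 0.42 (adjusted p = 2.44e-05, edgeR). *RPL9B*, a ribosomal protein gene with the close paralog *RPL9A*, fell from 255 to 155 (−0.72, adjusted p = 6.29e-08, edgeR). Reads of such paralogs may have been split between them in the counting, so this value is uncertain.

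**Figure D5:**
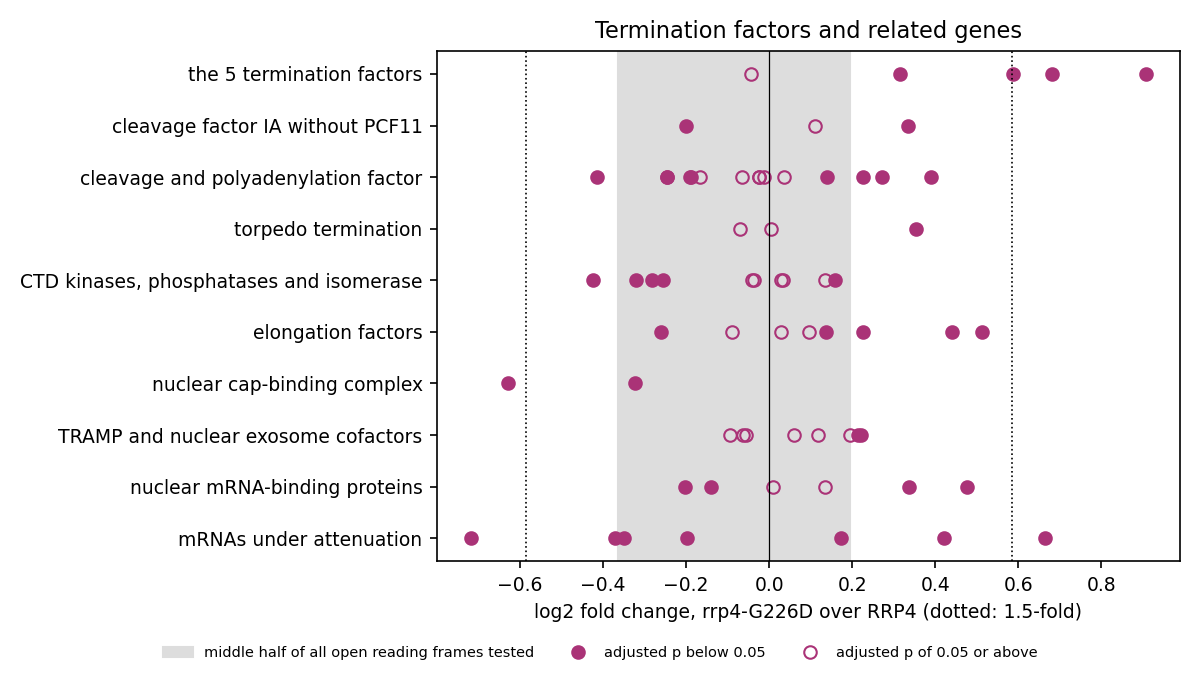
log2 fold change (horizontal axis) of the 5 termination factor genes and of 62 genes in 9 related lists, each point a gene. Filled points have an adjusted p below 0.05, the grey band spans the quartiles of all open reading frames tested, and dotted lines mark 1.5-fold. Of the 62 listed genes 1 lies above the upper line, against 3 of the 5 termination factors. Factors and lists were chosen with earlier results of these data known, so this contrast is only a description.

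The mRNAs most like each factor were found by the distance between profiles over the 6 libraries, each centred on its mean, among 5128 named open reading frames. The distance is the root mean square difference in log2 normalized counts, and with only 2 genotypes it mainly matches the size of the change. *SEN1* was nearest to *THO2*, a subunit of the THO complex of transcription and mRNA export (distance 0.0195, log2 fold change 0.60), then to *BLM10* and *PIN2*. *NRD1* was nearest to *OPT1*, *PRM10* and *NAT4* (0.0418 to 0.0519), and *NAB3* to *ERC1*, *BMS1* and *PMD1* (0.0369 to 0.0417). *PCF11* was nearest to *DNF2*, *IRC5* and *SKY1* (0.0150 to 0.0223), and *HRP1* to *ADH6*, *HMG2* and *ERG7* (0.0109 to 0.0191). Among the factors themselves *NAB3* and *SEN1* were closest, at 0.0638, and *NRD1* and *HRP1* farthest apart, at 0.478.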

How the data were processed

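RNA-seq was measured in 6 libraries of rRNA-depleted total RNA. The authors mapped paired, stranded reads with STAR to an R64-1-1 genome to which CUT and SUT features had been added and counted them with featureCounts (1.6.4). The deposited values are whole-number counts per feature and library, without normalization; strand and multi-mapping settings are not given in the sources used here. The authors' deposited DESeq2 table, which also holds mean signal, log2 fold changes, their errors, Wald scores and p-values, was used only for gene names.

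The counts were tested with edgeR 4.0.16 (R 4.3.3), with filterByExpr, TMM, genotype as the only term and Benjamini-Hochberg adjustment. A standard error is the log2 fold change divided by the square root of F. DESeq2 1.42.0, other scalings and filters, robust dispersion, glmTreat, a replicate block and leaving out each library were alternatives. On simulated counts edgeR recovered 200 of 200 features changed by 1.5 (log2), with 2 false calls among 7580. Ratios used exact permutation tests (scipy 1.17.1, Python 3.11.15). Annotation and sequence are RefSeq's, of the same R64 assembly. The replicates are described as biologically independent.

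The members and lists were chosen with earlier results of these data known. Named genes are the 5 factors, their nearest annotated neighbours, listed genes past 1.5-fold or farthest from 0 in their list, and the 3 most similar profiles. *CLP1*, *RNA14*, *SSU72*, *RAI1*, *RTT103*, *ESS1*, *LEO1*, *CDC73*, *CTR9*, *PAF1*, *STO1*, *AIR2*, *PAP2*, *RRP6*, *NPL3*, *YRA1*, *PUB1* and *URA2* were named after their values were seen.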

Additional observations from a re-analysis of the deposited data

How the results depend on the processing

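The 10 ratios kept their direction with each library left out, on the plain scale and within replicate numbers. *NRD1*, *NAB3*, *SEN1* and *PCF11* kept their direction under all 15 alternatives and an adjusted p below 0.05 under all but glmTreat, which tests against 1.5-fold and kept *NRD1*, with *NAB3* at a log2 fold change of 0.68 (adjusted p = 0.171), *SEN1* at 0.59 (0.952) and *PCF11* at 0.32 (1.0). *HRP1* turned to 0.41 with library size only, where it passed the test (adjusted p = 3.13e-06, edgeR) and *PCF11* passed 1.5-fold at 0.77, and to 0.035 with TMM over open reading frames. Over all features there were 968 increased and 864 decreased with TMM, 2880 and 152 with library size only, and 347 and 445 with glmTreat. In the 9 lists, with 1 increased and 2 decreased, library size only gave 20 and 0, TMM over open reading frames 2 and 1, glmTreat 0 and 0, and leaving out 1 library 0 to 2 increased and 1 to 2 decreased. The cause was not tested beyond the shift in scaling.

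With library size only, *COA2* turned to 0.44, *CRN1* to 0.24, *IVY1* to 0.14, *TRM11* to 0.44, *SMF1* to 0.0066, *GLC7* to 0.033 and *CTK2* to 0.026. With TMM over open reading frames, *COA2* turned to 0.066 and *TRM11* to 0.071, and with a mean count of at least 50 to 0.028 and 0.034. With 1 library left out, log2 fold changes ran from −0.13 to 0.078 for *COA2*, from −0.10 to 0.091 for *TRM11* and from −0.093 to 0.081 for YPL191C, none of which had passed the test with TMM scaling. With library size only, *COA2* (adjusted p = 0.00568, edgeR), *TRM11* (adjusted p = 1.32e-05, edgeR) and YPL191C (0.47, adjusted p = 0.00460, edgeR) passed as higher. *ATG23*, *SIR4* and *CRN1* lost an adjusted p below 0.05 under some settings.

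Same-numbered libraries of the genotypes did not deviate together (r = 0.02, 0.07 and −0.07), so the numbers do not pair them. With the replicate block, 960 features were increased and 870 decreased, and the log2 fold changes of the 5 factors were 0.91, 0.68, 0.59, 0.31 and −0.04. The block left *NRD1*, *NAB3*, *SEN1*, *PCF11* and *HRP1* on the same side of 0.05. Depth was not a limit for these mRNAs, but the 3 libraries per genotype were.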
